A study of Mus musculus with 3 samples.

Results

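The genes described here encode parts of the intercalated disc, the junction that joins heart muscle cells end to end. They are 10 genes, taken by symbol from the deposited raw table: the desmosome genes Pkp2, Dsg2, Dsp, Dsc2 and Jup, the connexin genes Gja1, Gja5 and Gjc1, and the adherens junction genes Cdh2 and Ctnna3. The table holds 46632 probes, of which 34727 could be named as 20974 RefSeq genes. The 10 genes have 21 of these probes, with Gja7 read as an older symbol of Gjc1. A further 2 probes bear clone names listed as synonyms of Ctnna3 and Pkp2 and were left out by the rule. For 7 of the 10 genes the brightest probe was detected on at least 1 array, at a detection p under 0.01. The probes of Dsc2, Cdh2 and Ctnna3 were detected on none.

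RNA came from heart cell preparations labelled as cardiomyocytes, of mice with the strain label eGFP α-MHC on DBA. The label names the green reporter and the α-myosin heavy chain, which Myh6 encodes, and is shared by all 3 stages, so no stage lacks the reporter strain. The embryonic mice were at embryonic day 11 to 12, the neonatal mice at day 3 to 4 and the adult mice at 10 weeks or older. Each stage was 1 bead array of RNA pooled from several hearts, so there is no replicate, no p-value and no error between animals. The hearts were dissociated with an enzyme blend, and how the cells were gated in the sort named in the design text is not stated there.

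Desmosomes are spot junctions. The desmosomal cadherins of the Dsg and Dsc families reach across the gap between cells, plakoglobin and plakophilins bind their tails inside the cell, and desmoplakin ties the plaque to intermediate filaments. Connexins form gap junction channels that pass current from cell to cell, and classical cadherins with their catenins anchor actin at the same discs. Mutations of the desmosome genes are a known cause of arrhythmogenic cardiomyopathy in humans.

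The labels were set against marker genes first. All 18 cardiomyocyte markers were detected in the embryonic and neonatal arrays and 14 in the array labelled adult, where Myh6, Mybpc3, Ttn and Nkx2-5 were not detected. Their summed raw signal was 360075.1, 213939.2 and 6399.4 in the order embryonic, neonatal, adult. Fibroblast markers were detected for 7, 14 and 14 of 15 genes in the same order, macrophage markers for 3, 13 and 14 of 14, and endothelial markers for 4, 11 and 10 of 12. The summed raw signal of the fibroblast markers was 24481.7, 205340.7 and 142594, of the macrophage markers 1587.2, 29499 and 29368.3, and of the endothelial markers 1666.7, 10837 and 4927.7. Smooth muscle and pericyte markers were detected for 6, 9 and 8 of 10 genes and red cell markers for 8, 4 and 3 of 8. In the array labelled adult the cardiomyocyte markers thus summed to far less than the fibroblast markers, and whether that preparation held mainly heart muscle cells cannot be told from these data. Each adult value below is a value of that preparation. Every difference below was measured between arrays that also differ in these markers, and their part in it was not tested. In pooled preparations fewer cells of a type and less RNA per cell cannot be told apart.

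Values are background-corrected, quantile-normalized log2 signals. A level can be compared between arrays for 1 probe, not between probes. A gene counts as higher or lower from 2-fold upward if at least 1 array of the pair detected it. Where only 1 did, the dim side is set to at least the lowest detected signal of its array and the difference is a bound. The value after ± is the standard error from the spread between beads.

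Between the embryonic and neonatal arrays, 5 of the 7 measured genes were lower in the neonatal array by 2-fold or more and 1, Jup, was higher. Over all 10560 measured genes 34.8% were that far apart, 17.2% lower and 17.6% higher. The genes' median difference was -2.47, and -0.05 over all measured genes. Between neonatal and adult, 5 of 7 were lower and 0 higher, against 10.7% and 11.1% of 10404 genes (21.8% in either direction), with medians of -1.58 and -0.06. Between embryonic and adult, 6 of 7 were lower and 1 higher, against 22.9% and 21.4% of 10542 genes (44.3% in either direction), with medians of -4.75 and -0.14. The genes Pkp2, Dsg2, Dsp and Gja5, 4 of 7, were at least 2-fold lower in both steps, as were 3.25% of the 10042 genes measured in both. The 7 genes counted are those that some array detected, and the 3 comparisons share arrays. With the mean over all probes of a gene, undetected ones included, the neonatal to adult count was 1, Pkp2, at a bound of -1.19. Dsp was then at -0.43 and Gjc1 at -0.57, and for Dsg2 and Gja5 the neonatal mean lay below the adult floor, so no bound could be given. Without that floor the count was 3, with Pkp2 at -2.50, Dsg2 at -1.07 and Gja5 at -1.27. With arrays only centred on their medians, the higher share of all genes 2-fold apart was 61.25% rather than 50.65% from embryonic to neonatal, 9.89% rather than 50.99% from neonatal to adult and 28.23% rather than 48.31% from embryonic to adult.

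**Figure D1:**
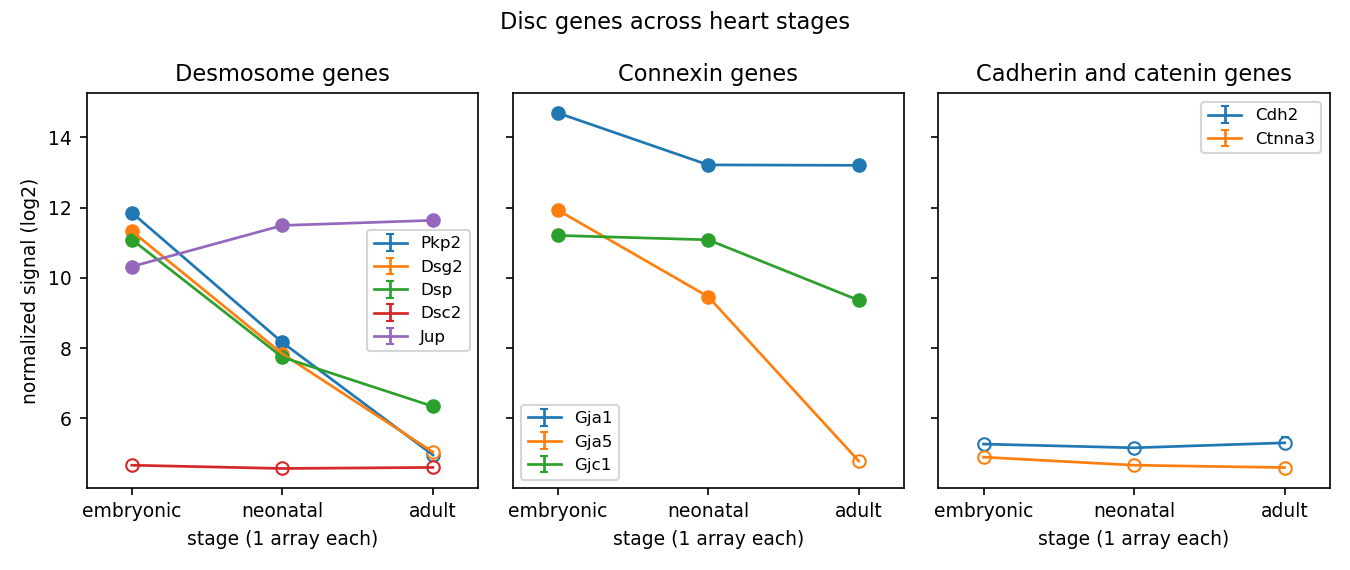
Normalized log2 signal (vertical axis) of the brightest probe of each of the 10 genes on the embryonic, neonatal and adult arrays (horizontal axis), with 1 array per stage. Filled points were detected and open points were not, bars are the standard error between beads, and of the 7 detected genes Jup alone lies higher in the neonatal and adult arrays than in the embryonic array.

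By their brightest probes, the desmosome genes Pkp2, Dsg2 and Dsp were all over 10-fold lower in the neonatal than in the embryonic array. With the mean over all probes of a gene, undetected ones included, these log2 differences were -3.96, -2.50 and -2.18. In the adult array only Dsp was detected. Pkp2, for plakophilin 2, the main plakophilin of heart muscle, was at 11.86, 8.16 and 4.95 from the embryonic through the neonatal to the adult array, and was not detected in the last. The raw signals behind these values were 4087.8, 433.2 and 57.1. Each step was downward, with the embryonic array far above the other arrays.

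Pkp2 was 13.0-fold lower in the neonatal than in the embryonic array (log2 difference -3.70 ± 0.11), and 0.284% of measured genes were as low or lower. It was at least 3.73-fold lower in the adult than in the neonatal array and at least 48.4-fold lower than in the embryonic array. Both bounds are set by the lowest detected signal of the adult array, 6.26. A second Pkp2 probe had raw signals of 2237.5, 191.2 and 57.2, and was likewise detected in the embryonic and neonatal arrays only. A left-out synonym probe, named for a Pkp2 clone, read 281.5, 139.2 and 55.4 in the same order, also detected in the first pair alone.

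Dsg2, for desmoglein 2, the desmoglein of heart muscle, was at 11.33, 7.84 and 5.04 in stage order, not detected in the adult array, so the stages were ordered as for Pkp2. It was 11.2-fold lower in the neonatal than in the embryonic array (-3.49 ± 0.08). In the adult array it was at least 2.99-fold lower than in the neonatal and at least 33.6-fold lower than in the embryonic array. These values rest on a probe for which the file gives no transcript definition. Of the other Dsg2 probes, which have one, 1 was detected in the embryonic array alone, with raw signals of 348.9, 82.9 and 52.2, and 1 on no array.

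Dsp, for desmoplakin, the plaque protein that holds intermediate filaments, was at 11.09, 7.74 and 6.34 in stage order. It was 10.2-fold lower in the neonatal than in the embryonic array (-3.35 ± 0.09) and 2.64-fold lower in the adult than in the neonatal array (-1.40 ± 0.14). Its adult raw signal of 94.1 had a detection p of 0.00998, just under the limit. The other Dsp probes were dim: 1 was detected in the embryonic array alone, at a raw signal of 130.7, and 1 on no array.

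Jup, for plakoglobin, which binds both desmosomal and classical cadherins, went the other way. It was at 10.32, 11.49 and 11.64 in stage order, with the embryonic array lowest. It was 2.25-fold higher in the neonatal (1.17 ± 0.06) and 2.49-fold higher in the adult (1.32 ± 0.07) than in the embryonic array. Of all measured genes, 15.0% were as high or higher in the neonatal comparison. Its raw signals of 1412.7, 3933.5 and 1830.5 put the adult array below the neonatal one. The median raw signal of all probes was also lower in the adult array, 57.3 against 77.6. Only 30.3% of adult and 32.9% of neonatal probes were detected, so both medians are signals below detection. Median centring takes all probes and rests on such signals too. The adult minus neonatal difference was 0.15 ± 0.06, and -0.75 where arrays were only centred on their medians, a scaling that moved the median of all genes to -0.79. With that scaling the adult minus embryonic difference was 0.59, under 2-fold, as was the neonatal minus embryonic difference of 0.80 with the mean over both probes. A second Jup probe, with raw signals of 101.6, 150.7 and 152.9, was detected in the neonatal and adult arrays and not in the embryonic array.

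Within the plaque the differences were thus unequal. From embryonic to neonatal, Jup minus Dsp was 4.52 ± 0.11 and Jup minus Pkp2 4.87 ± 0.13 on the log2 scale, while Dsp minus Pkp2 was 0.34 ± 0.14 and Dsg2 minus Pkp2 0.21 ± 0.14. Plakoglobin is also made in endothelial cells. Of their measured markers 7 of 11 were at least 2-fold higher in the neonatal than in the embryonic array, and in the adult array 6 of 10 were higher and 1 lower. Their part in the Jup values was not tested.

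RefSeq promoters were at hand for Dsp and Jup, which lay on opposite sides of the embryonic array, and are shown for the 250 bases before each gene's start, 5′ to 3′ on the gene's strand. Capitals mark matches, on either strand, to any of 7 motifs: the T-box core AGGTGT, the AP-1 site TGANTCA, the GC box GGGCGG, the TATA box TATAAA, the GATA site AGATAA, the MCAT element CATTCC and the NKX2-5 site TNAAGTG. No marked matches overlap.
Dsp, GRCm38.p6 chr13:38151044-38151293, plus strand: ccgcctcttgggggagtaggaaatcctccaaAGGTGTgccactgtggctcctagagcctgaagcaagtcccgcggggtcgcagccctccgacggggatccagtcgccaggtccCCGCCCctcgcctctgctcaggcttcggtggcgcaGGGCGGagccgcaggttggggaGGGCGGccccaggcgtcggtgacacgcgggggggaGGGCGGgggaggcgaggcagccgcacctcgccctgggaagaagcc
Jup, GRCm38.p6 chr11:100397791-100398040, minus strand: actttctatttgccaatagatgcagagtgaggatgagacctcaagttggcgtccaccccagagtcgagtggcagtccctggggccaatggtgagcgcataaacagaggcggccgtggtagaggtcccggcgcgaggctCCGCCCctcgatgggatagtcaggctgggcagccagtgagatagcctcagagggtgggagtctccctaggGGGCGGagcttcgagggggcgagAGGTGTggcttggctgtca
The Dsp window held 4 GC boxes and 1 T-box core, and the Jup window 2 GC boxes and 1 T-box core. Of all 32851 promoters of this length in the table, 32.7% held a GC box and 11.8% the T-box letters. A match is a description of letters and not a binding site.

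The connexins separated from each other. Gja1, for connexin 43, the main connexin of ventricular muscle and also of many other cells, was at 14.70, 13.22 and 13.20 in stage order, with the embryonic array highest. The embryonic raw signal of 29019.5, from the only Gja1 probe, was near the array's maximum of 39259.2, and only 50 probes were as bright or brighter. The gene was 2.79-fold lower in the neonatal than in the embryonic array (-1.48 ± 0.07), and the difference was -2.04 in the authors' processed values. Between neonatal and adult it was -0.01 ± 0.07, or -0.77 with median centring, close to the median of all genes under that scaling.

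Gja5, for connexin 40, a fast-conducting channel of atria and the ventricular conduction system, was detected in the embryonic and neonatal arrays only. It was at 11.93, 9.46 and 4.78 in stage order, from raw signals of 4287.2, 1004.8 and 51.4. It was 5.53-fold lower in the neonatal than in the embryonic array (-2.47 ± 0.08), at least 9.22-fold lower in the adult than in the neonatal array, and at least 51.0-fold lower in the adult than in the embryonic array. Only 0.313% of measured genes were as low or lower in that last comparison. A second Gja5 probe was detected in the embryonic array alone, with raw signals of 204.9, 75.4 and 42.7, and the other 2 on no array. With the mean over all 4 probes the adult minus embryonic value was a bound of -0.92, and -2.51 without the floor.

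Gjc1, for connexin 45, a channel of the early heart and of the nodes, was at 11.21, 11.08 and 9.36 in stage order, with only the adult array apart. Its neonatal minus embryonic difference was -0.12 ± 0.12, about 1 standard error of the beads, and it was 3.30-fold lower in the adult than in the neonatal array (-1.72 ± 0.12). The value rests on 1 probe, read from 19, 17 and 25 beads where the median probe had 37, and the other 2 Gjc1 probes were detected on no array. With the mean over all 3 probes the adult minus embryonic difference was -0.59.

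From embryonic to neonatal Gjc1 differed least of the connexins, with Gjc1 minus Gja5 at 2.34 ± 0.14. Gja1 minus Gja5 was 0.99 ± 0.10, but the order of these genes was not stable. With the mean over probes Gja1 was at -1.48 and Gja5 at -1.24, and in the authors' processed values they were at -2.04 and -2.44, beside an embryonic Gja1 signal near the top of the scale. From neonatal to adult Gja1 differed least, with Gja1 minus Gjc1 at 1.71 ± 0.14 and Gja1 minus Gja5 at 3.19 or more. Fibroblasts and smooth muscle cells also make connexin 43, and the part of their RNA in the Gja1 values was not tested.

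Promoters of Gja1, close to level from neonatal to adult, and Gja5, below detection in the adult array, are shown in the same way.
Gja1, GRCm38.p6 chr10:56377050-56377299, plus strand: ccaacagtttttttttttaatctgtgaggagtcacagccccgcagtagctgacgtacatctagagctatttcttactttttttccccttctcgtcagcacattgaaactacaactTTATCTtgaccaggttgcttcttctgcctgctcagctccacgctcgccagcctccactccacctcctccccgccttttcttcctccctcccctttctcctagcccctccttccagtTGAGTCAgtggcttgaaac
Gja5, GRCm38.p6 chr3:97032152-97032401, plus strand: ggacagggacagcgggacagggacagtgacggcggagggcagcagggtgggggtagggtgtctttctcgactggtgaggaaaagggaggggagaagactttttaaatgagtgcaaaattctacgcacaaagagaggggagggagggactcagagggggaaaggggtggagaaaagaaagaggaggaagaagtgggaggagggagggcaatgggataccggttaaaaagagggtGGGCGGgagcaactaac
The Gja1 window held 1 AP-1 site, which lies from base 19 to base 13 before the start, and 1 GATA site. The AP-1 pattern TGANTCA matches on both strands at once, so the site is counted 1 time. The Gja5 window held 1 GC box. Over all promoters, 6.75% held the AP-1 letters and 9.99% the GATA letters. No TATA box, MCAT element or NKX2-5 site of these letters lay in any of the 4 windows, and 12.4%, 12.6% and 10.1% of all promoters held them.

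**Figure D2:**
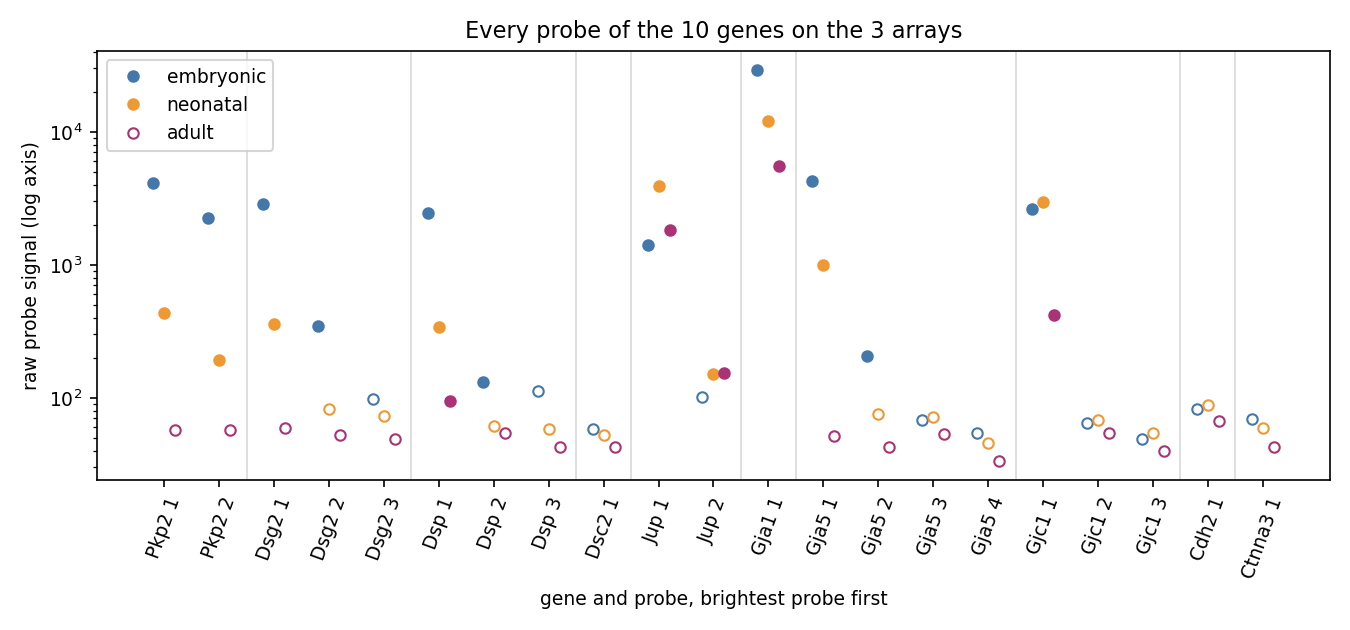
Raw signal on a log axis of all 21 probes of the 10 genes, grouped by gene with the brightest probe first, on the embryonic, neonatal and adult arrays. Filled points were detected, open points were not, and 12 of the 21 probes were detected on at least 1 array.

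Dsc2, for desmocollin 2, the partner cadherin of desmoglein 2, had raw signals of 58.3, 52.1 and 42.7 in stage order, with detection p from 0.63 to 0.91. Ctnna3, for αT-catenin, which links plakophilin 2 to the adherens junction, had 69.6, 59.2 and 42.5. Cdh2, for N-cadherin, the classical cadherin of heart muscle, had 82.4, 87.7 and 66.6, from a probe of a cDNA clone rather than a RefSeq transcript. With a detection p under 0.05 in place of 0.01 Cdh2 counted as measured and none of its differences reached 2-fold. For these genes the arrays give no order of the stages, and a signal below detection does not show that a transcript was absent.

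Read by probe, 8 of the 12 probes measured between embryonic and neonatal were lower in the neonatal array by 2-fold or more and 1 higher, where 19.0% and 15.9% of all 16967 measured probes were. Between neonatal and adult 5 of 9 were lower and 1, the dimmer Jup probe, was higher, against 9.83% and 11.9% of 16411 probes. Between embryonic and adult 9 of 12 were lower and 2 higher, against 22.0% and 19.5% of 16693. In the probe plot no measured probe of a gene lay at least 2-fold higher in a comparison where another probe of that gene lay at least 2-fold lower.

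The cardiomyocyte markers give the setting of these values. Their median difference was -1.12 from embryonic to neonatal, with 10 of 18 at least 2-fold lower, and -4.14 from neonatal to adult, with 17 of 18 lower. In the first step Pkp2, Dsg2 and Dsp differed from that median by -2.58, -2.38 and -2.24 on the log2 scale. Gja5 differed from it by -1.35, Gja1 by -0.36, Gjc1 by 0.99 and Jup by 2.29. The markers themselves ranged from -3.95 to -0.25 in that step. Pkp2, Dsg2 and Dsp, at -3.70, -3.49 and -3.35, lay inside this range but near its low end. Of the markers only Nkx2-5 was lower than Pkp2, and only Nkx2-5 and Mybpc3 were lower than Dsg2 and Dsp. In the second step Gjc1 lay 2.42 above the marker median, Gja1 4.13 and Jup 4.28, and Pkp2, Dsg2 and Gja5 have bounds only. Dsp lay 2.74 above it, but its adult level of 6.34 was close to the lowest detected signal of that array, 6.26. From its neonatal level of 7.74 a drop as large as the marker median could not have been measured. From embryonic to adult the marker median was -5.07. Gjc1 lay 3.22 above it, Gja1 3.58 and Jup 6.39. Dsp lay 0.32 above it, but from its embryonic level of 11.09 a drop that large would end below 6.26. It could not have been measured, so the place of Dsp beside this median is not informative. Pkp2, Dsg2 and Gja5 had bounds of -5.60, -5.07 and -5.67. Several markers had embryonic raw signals near the top of the scale, among them Myl2 at 35253.8 and Tnnc1 at 31397.7, where a difference between bright arrays can be compressed, which was not tested.

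**Figure D3:**
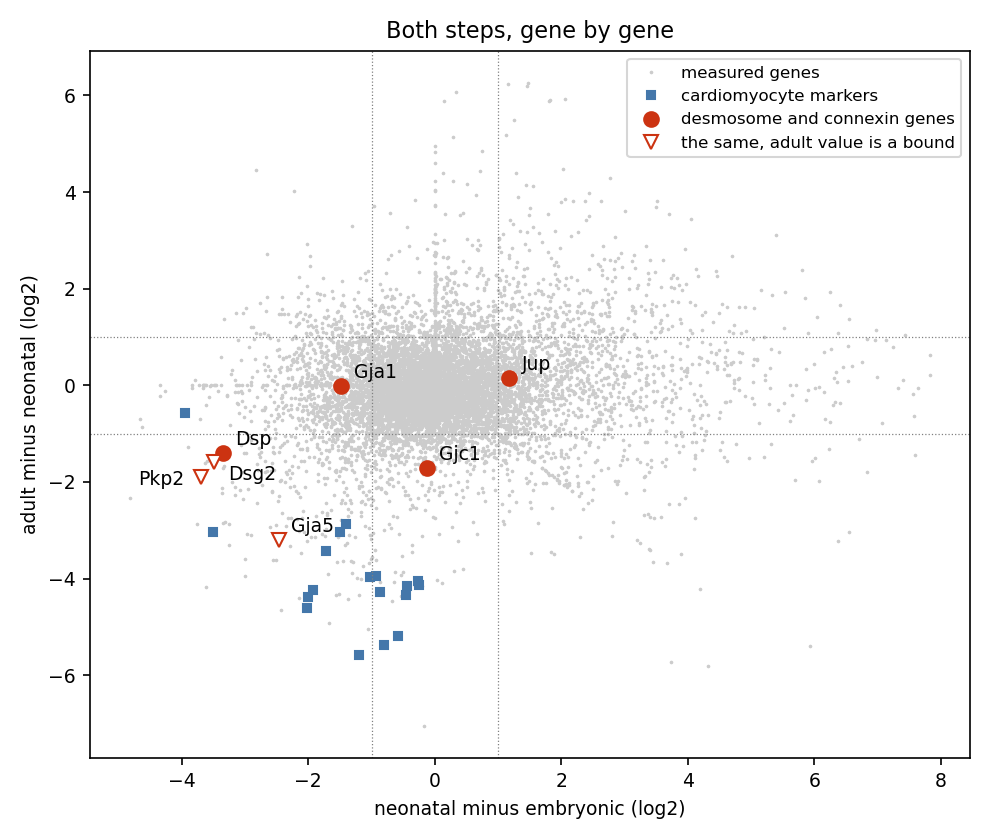
Log2 difference neonatal minus embryonic (horizontal axis) against adult minus neonatal (vertical axis) for the 10042 genes measured in both steps (grey), the 18 cardiomyocyte markers (squares) and the 7 measured disc genes (round points, or open triangles where the adult value is a bound). Dotted lines mark 2-fold. Most markers lie low on the vertical axis, and Gja1 and Jup lie at -0.01 and 0.15 on it (-0.77 and -0.75 with median centring). Pkp2, Dsg2 and Dsp lie far left, inside the range of the markers, which runs from -3.95 to -0.25 on the horizontal axis.

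Other desmosome genes were mostly below detection. Of 13 such genes 5 were measured. Of 9 desmosomal cadherin genes on the array, Dsg2 among them, 2 were detected on any array, the other being Dsg3, which was at 7.50, 7.47 and 7.87 from 1 probe of a cDNA clone. Pkp4, a plakophilin relative found at classical cadherin junctions, was 2.34-fold lower in the neonatal than in the embryonic array (-1.23 ± 0.07) and 2.70-fold lower in the adult than in the neonatal array (-1.43 ± 0.08). Ppl, for the plaque protein periplakin, was 31.0-fold higher in the adult than in the neonatal array (4.96 ± 0.11), from raw signals of 58.9, 144.3 and 1302.3, and its second probe had 59.2, 105.4 and 809.4. Evpl, for the related envoplakin, was detected in the neonatal and adult arrays and not in the embryonic array, with a bound under 2-fold. Periplakin and envoplakin are best known from stratified epithelia. Of 10 epithelial markers 1, 3 and 1 were detected in the embryonic, neonatal and adult arrays, Epcam on none, and of 10 epicardial and mesothelial markers 5, 7 and 7 were.

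Few other connexins were detected. Of 19 connexin and pannexin genes besides the 3 disc connexins, 3 were measured. All 3 were higher in the neonatal than in the embryonic array by 2-fold or more, and all were under 2-fold apart between neonatal and adult. With median centring 2 of them were lower in the adult array, as were 4045 of all 10407 genes measured under that scaling. Gja4, for connexin 37 of endothelium, was at 4.86, 10.55 and 10.17 and was at least 19.4-fold higher in the neonatal than in the embryonic array. Panx1, for the channel protein pannexin 1, was 2.74-fold higher (1.45 ± 0.10). Endothelial markers had a median of 1.69 over the same step, with 7 of 11 measured genes higher, and their part in the Gja4 value was not tested.

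Most adherens junction genes, each read from its brightest probe, were under 2-fold apart with quantile normalization. From embryonic to neonatal the median of 12 measured genes was -0.01, and 0 were 2-fold lower and 1 higher, and from neonatal to adult the median of 11 was -0.32, and 2 were lower and 0 higher. With median centring 6 of 11 were lower from neonatal to adult, beside 4045 of all 10407 genes measured under that scaling. Their median was then -1.15, where that of all genes was -0.79. Ctnna1, for αE-catenin, was at 13.65, 13.66 and 13.06, Ctnnb1, for β-catenin, at 12.45, 12.36 and 12.27, and Vcl, for the actin anchor vinculin, at 12.54, 12.78 and 12.14. Nectin1, an adhesion molecule of the immunoglobulin family, was higher by 2.12 ± 0.12 in the neonatal array. Cdh13, for T-cadherin, and Nectin2 differed by -2.19 ± 0.13 and -1.78 ± 0.11 between neonatal and adult. These proteins are made by most adherent cell types, so a steady signal of the brightest probe does not show that the muscle cells' own level was steady.

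Genes of other disc proteins included many that were lower after the embryonic stage. From embryonic to neonatal the median of 23 measured genes was -1.16, and 12 were lower by 2-fold or more, beside 17.2% of all measured genes, and 2 higher, Tmem43 and Zyx. Des, for the intermediate filament protein desmin that desmoplakin holds, differed by -3.16 ± 0.12, Ank3, for ankyrin G, by -3.09 ± 0.08, and Cxadr, for the coxsackievirus and adenovirus receptor, by -3.03 ± 0.09. Xirp1, an actin-binding Xin repeat protein of the disc, differed by -2.66 ± 0.12. From neonatal to adult 6 of 22 were lower, beside 10.7% of all, and 0 higher, around a median of -0.64. With median centring 17 of 22 were lower, beside 4045 of all 10407 genes measured under that scaling. Csrp3, for muscle LIM protein, was 21.2-fold lower (-4.41 ± 0.16), Lmo7, for a LIM domain protein, at least 7.43-fold, and Nrap, for an actin-anchoring protein, at least 5.23-fold. Between embryonic and adult 13 of 23 were lower, beside 22.9% of all, and 1 higher, and the latter was Tmem43, a nuclear envelope protein gene, at 2.72 ± 0.09. Tjp1, for the scaffold ZO-1 that binds connexin 43, differed by -0.45 ± 0.13 and -0.51 ± 0.14 in the steps.

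**Figure D4:**
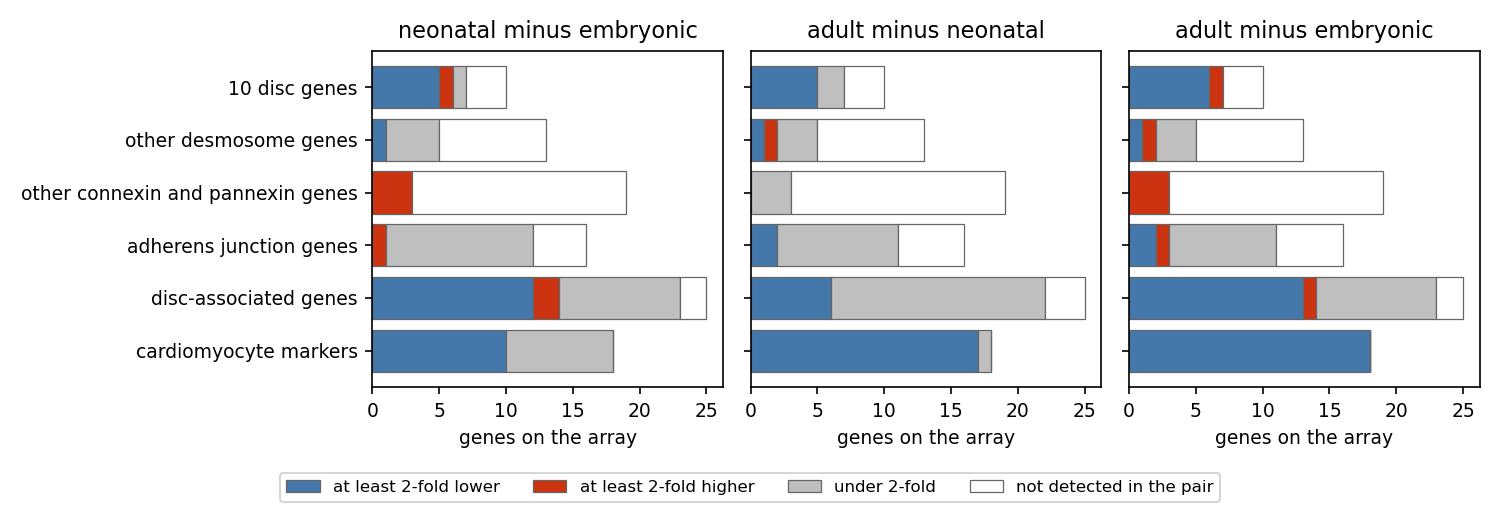
Number of genes on the array (horizontal axis) that were at least 2-fold lower, at least 2-fold higher, under 2-fold apart or not detected in the pair, for the 10 disc genes, the 4 other junction lists and the cardiomyocyte markers, in the 3 comparisons. The adherens junction bar holds 0, 2 and 2 lower genes, and the marker bar 10, 17 and 18.

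The genes whose 3 levels ran closest to Pkp2, by Euclidean distance after each gene's mean was subtracted, were sought among the 718 genes detected on the embryonic and neonatal arrays only. The nearest 5, at distances from 0.15 to 0.38, were Mybpc3, for cardiac myosin-binding protein C, Bex4, Kif26b, Igf2bp1 and Bves, for a membrane protein of muscle. The adult level was not detected for Pkp2 or for any of these candidates, so that level adds no measured likeness and the genes are given without a rank. For Gja1, among 7775 genes detected on all 3 arrays, they were Baz1a at 0.0048, Fam185a at 0.01, Fastkd5 at 0.05, Osbpl3 at 0.06 and Naa35 at 0.06. With 3 points per gene such likeness is easily met and is given as a description.

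The authors' deposited table gave an adult over embryonic ratio of 0.00412 for Pkp2, 0.00762 for Dsg2 and 0.0376 for Dsp. In the authors' deposited table the same ratio was 2.45 for Jup, 0.241 for Gja1, 0.00132 for Gja5 and 0.286 for Gjc1. The ratios for Pkp2, Dsg2 and Gja5 rest on adult signals that were not detected.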

How the data were processed

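The authors deposited raw probe intensity on a linear scale for 3 Illumina bead arrays, 1 per stage, with the spread between beads, the bead count and a detection score as a fraction, per the file headers. The authors also deposited processed intensity, and a table with a ratio and its natural log for adult against the other stages, per the file headers. The deposited ratio is read as a score, since some ratios are below 0. No label or header names the scanner software.

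The raw intensity was taken through neqc of limma 3.58.1 in R 4.3.3 with an offset of 16, using 1 minus the detection score as detection p, which gives log2 values. Quantile normalization removes any change that all genes of an array share. Probes were named by accession, symbol or unique synonym through RefSeq (GRCm38.p6), with 134 conflicting probes left out, and the brightest probe stood for a gene. The code was tested on simulated data. No test across stages was possible with 1 array each, and the number of arrays limits the precision.

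The genes, the lists of junction and marker genes and the rule for named genes were chosen with earlier results of these data known. All 10 genes with all probes are named, and up to 4 detected genes of each further list and comparison with the largest difference, plus the genes nearest to Pkp2 and Gja1. Ctnnb1, Tjp1, Tmem43 and Zyx fall outside this rule and were chosen after their values were seen, as were the 7 motifs. Some genes that the rule would name are not reported here. Promoter sequences are those of RefSeq, build GRCm38.p6, found for 5 of the 10 genes. Settings tried in turn were median centring, no background correction, an offset of 50, the authors' processed values with a floor of 16, the mean over probes, a detection p of 0.05, no detection filter, detection in both arrays and, added after seeing the data, each pair normalized alone and the mean over probes without the floor.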

Additional observations from a re-analysis of the deposited data

How the results depend on the processing

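Of the count of the 10 genes at least 2-fold apart, the value stayed within 1.5 times under every setting between embryonic and neonatal. Between neonatal and adult the count of 5 was 2 with detection in both arrays and 1 with the mean over probes, or 3 where that mean was taken without the floor on undetected arrays, a setting added after seeing the data. Between embryonic and adult the count of 7 was 4 with detection in both arrays, which leaves 4 genes. The other junction genes, 10 apart between neonatal and adult, were 27 with median centring, 6 with the mean over probes and 6 with detection in both arrays, and their count of 22 between embryonic and adult was 12 with detection in both arrays. Over all genes, median centring gave 444 higher and 4045 lower between neonatal and adult, 9.89% higher against 50.99%, 28.23% against 48.31% between embryonic and adult, and 61.25% against 50.65% between embryonic and neonatal. The median of all genes under median centring was 0.10, -0.79 and -0.62 for neonatal minus embryonic, adult minus neonatal and adult minus embryonic. Of 204 values of single genes under these settings, 12 crossed 2-fold and 0 of those at least 2-fold apart changed sign. Below 2-fold, Jup changed sign between neonatal and adult with median centring, at -0.75. No paired analysis was possible because each stage has 1 array. Signal near background limits the adult values of Pkp2, Dsg2 and Gja5 to bounds, and the cause of other shifts was not tested.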
